A study of Homo sapiens with 5 samples.

Results

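The kinesin motor family was followed at the mRNA level in IMR-90, a line of untransformed fibroblasts from human lung, at 24 hr after siRNA transfection. Members were all genes whose symbol is KIF or KIFC followed by a digit, with antisense genes left out, which gave 42 of the 26364 listed genes. By their known main role they were divided into 14 mitotic kinesins, 15 transport kinesins and 13 kinesins of other roles. KIF2A was placed among the other roles, whereas KIF2B and KIF2C were counted as mitotic. The results for mitotic kinesins therefore do not cover KIF2A. The 5 mRNA-seq libraries came from growing cells in serum-containing medium. Of these, 2 were from Ctr-KD cells, which had received the control siRNA (Ctr), and 3 were from NSD2-KD cells, transfected with NSD2-1, NSD2-2 or NSD2-3, which are different siRNAs against the histone methyltransferase gene NSD2. Since each NSD2 siRNA was sequenced once, the effect of a single siRNA and the variation between cultures cannot be told apart. The deposited values were normalized counts, that is, reads on each gene divided by a size factor of the library.

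Kinesins are motor proteins that use ATP to move along microtubules or to take them apart at their ends. Mitotic kinesins build the spindle, move chromosomes and organize cytokinesis, and the genes of many of them are transcribed mainly in G2 and M phase, so that their transcripts are abundant only where cells divide. Transport kinesins carry vesicles, mitochondria and other cargo in dividing and non-dividing cells alike.

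NSD2, listed as WHSC1, had normalized counts of 463 and 443 in the Ctr-KD libraries and of 90.2, 81.9 and 87.9 with NSD2-1, NSD2-2 and NSD2-3, so the 3 siRNAs left similar amounts of its transcript (log2 difference -2.37, standard error 0.12, adjusted p = 0.000464 from limma). Between 2473691 and 2845063 reads per library fell on genes. The Ctr-KD libraries were close to each other (chi-square divided by its degrees of freedom 1.05 across 11352 genes, against 4.11 to 5.65 for the other pairs), but differed by more than counting noise and were kept as 2 replicates. All 8 fibroblast markers were expressed, with summed normalized counts of 166986 and 171011 in Ctr-KD cells and between 156068 and 174335 in NSD2-KD cells. The 6 epithelial and 5 immune markers summed to at most 2.18 in any library, and KRT5, KRT14, SFTPC and PTPRC were at 0 in all of them. Of 5 endothelial markers, PECAM1 and CDH5 were at 0 and TEK was the exception, at 97.6 to 149.7 normalized counts.

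Of the 42 kinesin genes, 27 had a mean normalized count of at least 10 and entered the test. These were 11 mitotic, 12 transport and 4 other kinesins. They were tested with limma, letting the variance follow the mean, on values of log2(normalized count + 1), a scale that understates the changes of low genes, with Benjamini-Hochberg adjustment over all 11313 tested genes. Log2 differences are given as NSD2-KD minus Ctr-KD. For a single gene, the smallest p that exact permutation of 2 and 3 libraries allows is 0.1.

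The 11 tested mitotic kinesins were all lower in each NSD2-KD library than in both Ctr-KD libraries, at 41.5% to 59.6% of the Ctr-KD mean. Their median log2 difference was -0.95, beside -0.0089 over all tested genes. Transport kinesins showed no such shift, with a median of 0.02 over 12 genes, of which 6 were lower, 6 were higher and none lay below both Ctr-KD libraries in every NSD2-KD library. Among all tested genes, 13.9% lay below both Ctr-KD libraries in every NSD2-KD library and 13.8% above both. No kinesin passed an adjusted p of 0.05 in limma, where 0.053% of all tested genes were called lower and 0.0354% higher, and none passed with edgeR, DESeq2 or limma-voom on the recovered reads. At an unadjusted p under 0.05 in limma, all 11 tested mitotic kinesins were lower (4.99% of all tested genes), and 1 transport kinesin was higher (4.19% of all tested genes). The count of 11 mitotic kinesins was 10 in limma without the mean-variance trend, where 594 of 11313 genes were lower at an unadjusted p under 0.05. It was also 10 in robust limma, where 551 of 11313 genes were lower at that threshold. With DESeq2 the count was 9, where 334 of 17187 genes were lower at an unadjusted p under 0.05. It was also smaller when either Ctr-KD library was left out, which leaves a lone control. The number of all tested genes lower at that threshold fell in the fits with a lone control too. In these bulk libraries, fewer dividing cells and less of a transcript per cell cannot be told apart.

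**Figure D1:**
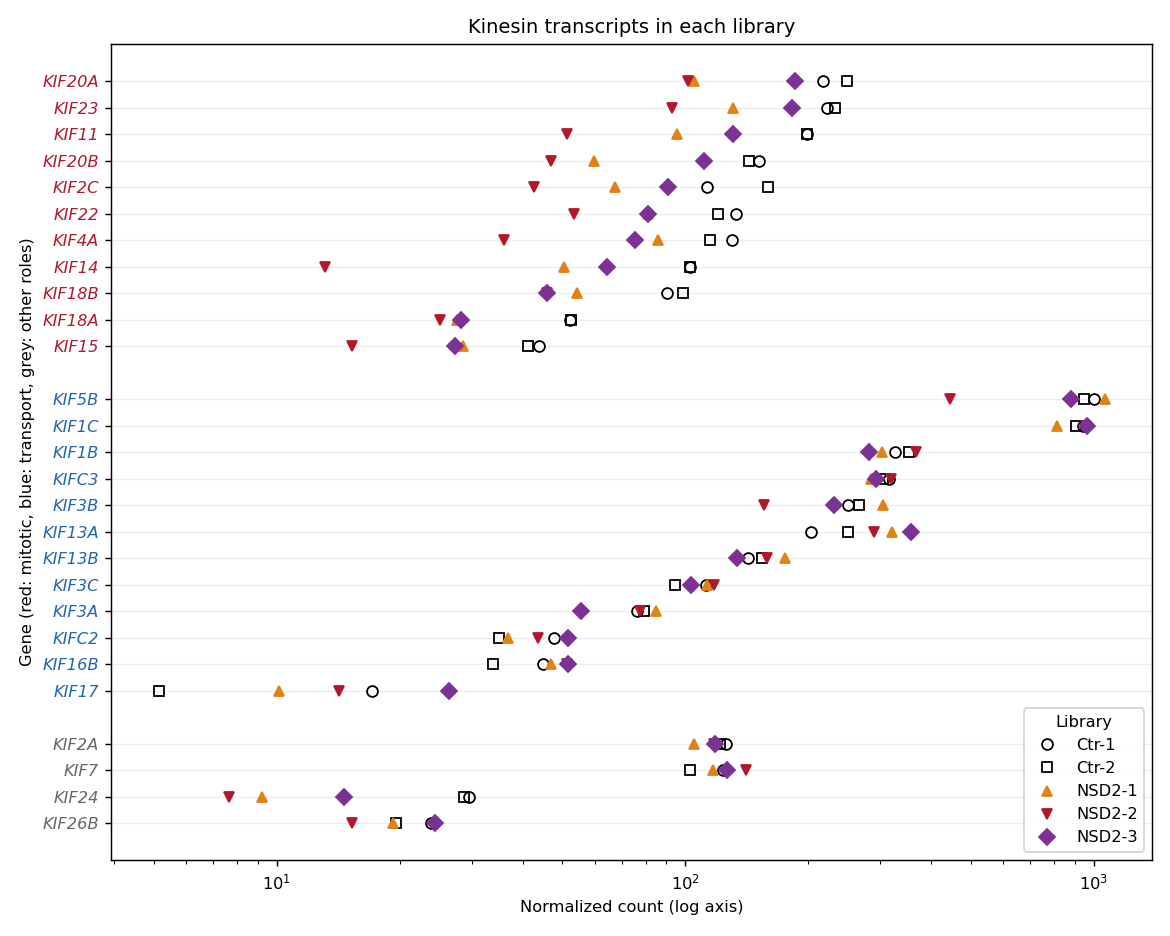
Normalized counts (log axis) of the 27 tested kinesins, 1 row per gene and 1 symbol per library, with open symbols for Ctr-KD and filled symbols for NSD2-KD libraries. In the 11 mitotic kinesins the filled symbols lie to the left of both open ones, from KIF20A down to KIF15, whereas in the transport kinesins they mix, apart from KIF13A and KIF16B, where they lie to the right, and KIF5B and KIF3B, where the NSD2-2 library lies apart on the left.

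The promoters of the mitotic kinesins shared a sequence feature that the choice of members did not use. RefSeq promoters (build GRCh38.p14, from 250 bases before to 50 after the transcription start) were at hand for 27 of the 42 members and were searched on both strands for 3 kinds of motif. The cell cycle homology region (CHR; TTTGAA or TTCGAA) is an element near the start of many genes that are transcribed late in the cell cycle, and it is often found together with a CCAAT box (CCAAT), the site of the factor NF-Y. TTCCCGC and TTGGCGC are forms of the E2F site, and none of the motifs contains another. A CHR match lay within 50 bases of the start in 9 of 13 mitotic kinesin promoters, in 0 of 8 transport kinesin promoters and in 1 of 6 promoters of other kinesins, against 5.34% of all 22114 promoters of this length. Over the whole 300 bases the numbers were 10 of 13, 1 of 8 and 1 of 6, against 17.2% of all promoters. CCAAT was present in 10 of 13, 2 of 8 and 1 of 6, against 36.2% of all promoters. E2F forms were present in 3 of 13, 3 of 8 and 1 of 6, against 9.02%. The 9 promoters with a CHR match near the start include those of KIFC1 and of KIF4B, a near-identical copy of KIF4A, both untested. Among tested genes, 7 of 10 mitotic and 0 of 8 transport kinesin promoters held such a match, against 3.15% of 6122 promoters. E2F forms were present in 15.4% of these 6122 promoters. A match of letters describes the sequence and is not evidence that a factor binds there.

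The CHR matches near the start are shown because most mitotic kinesin promoters and that of KIF24 held one. None was found in the 8 transport kinesin promoters, which is near the 5.34% of all promoters. Mean GC content was 60.3% in the mitotic, 71.8% in the transport and 56.7% in all promoters. The part of base composition in the number of matches was not tested. Each is printed in the direction of the gene with 12 bases on either side, capitals mark the match, and TTCAAA is TTTGAA read on the other strand. KIF20B holds a second match directly after the one in capitals. KIFC1 and KIF4B are printed although their transcripts could not be tested.
KIF11, chr10:92593090-92593119, plus strand: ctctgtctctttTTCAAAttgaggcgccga
KIF15, chr3:44761747-44761776, plus strand: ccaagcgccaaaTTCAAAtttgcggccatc
KIFC1, chr6:33391815-33391844, plus strand: tggccgttggaaTTCAAAagtggcgggtgt
KIF4A, chrX:70290058-70290087, plus strand: ctccgggacggaTTTGAAacttggcggtta
KIF4B, chr5:155013746-155013775, plus strand: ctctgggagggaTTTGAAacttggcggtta
KIF18A, chr11:28108149-28108178, minus strand: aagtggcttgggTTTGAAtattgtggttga
KIF18B, chr17:44947754-44947783, minus strand: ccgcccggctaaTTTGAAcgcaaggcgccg
KIF14, chr1:200620733-200620762, minus strand: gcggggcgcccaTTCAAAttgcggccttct
KIF20B, chr10:89701602-89701631, plus strand: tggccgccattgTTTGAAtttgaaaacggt
KIF24, chr9:34329250-34329279, minus strand: acagcgcgggcgTTCGAActggcgcttggc

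KIF23 and KIF5B show the whole window for a mitotic and a transport kinesin that both hold a CHR and a CCAAT match, all in capitals (ATTGG is CCAAT on the other strand). In KIF23 the CHR match begins at -55, just after the CCAAT match at -64 to -60. In KIF5B it begins at -140, upstream of the CCAAT match at -59 to -55. KIF20A held CCAAT at -94 and -67 but no CHR match, and KIF2C held no match to any of the motifs.
KIF23, chr15:69414099-69414398, plus strand: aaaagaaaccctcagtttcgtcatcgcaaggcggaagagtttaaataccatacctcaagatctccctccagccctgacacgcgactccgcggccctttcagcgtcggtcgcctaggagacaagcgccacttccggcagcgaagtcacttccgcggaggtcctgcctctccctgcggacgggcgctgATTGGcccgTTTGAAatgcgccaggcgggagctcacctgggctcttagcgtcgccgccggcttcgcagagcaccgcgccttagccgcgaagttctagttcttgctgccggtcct
KIF5B, chr10:32056376-32056675, minus strand: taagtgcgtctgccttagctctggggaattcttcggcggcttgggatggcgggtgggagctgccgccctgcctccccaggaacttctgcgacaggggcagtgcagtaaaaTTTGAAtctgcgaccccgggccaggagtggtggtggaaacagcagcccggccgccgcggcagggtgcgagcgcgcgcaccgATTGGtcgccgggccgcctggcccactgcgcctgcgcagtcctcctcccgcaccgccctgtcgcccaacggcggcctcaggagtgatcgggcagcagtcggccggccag

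**Figure D2:**
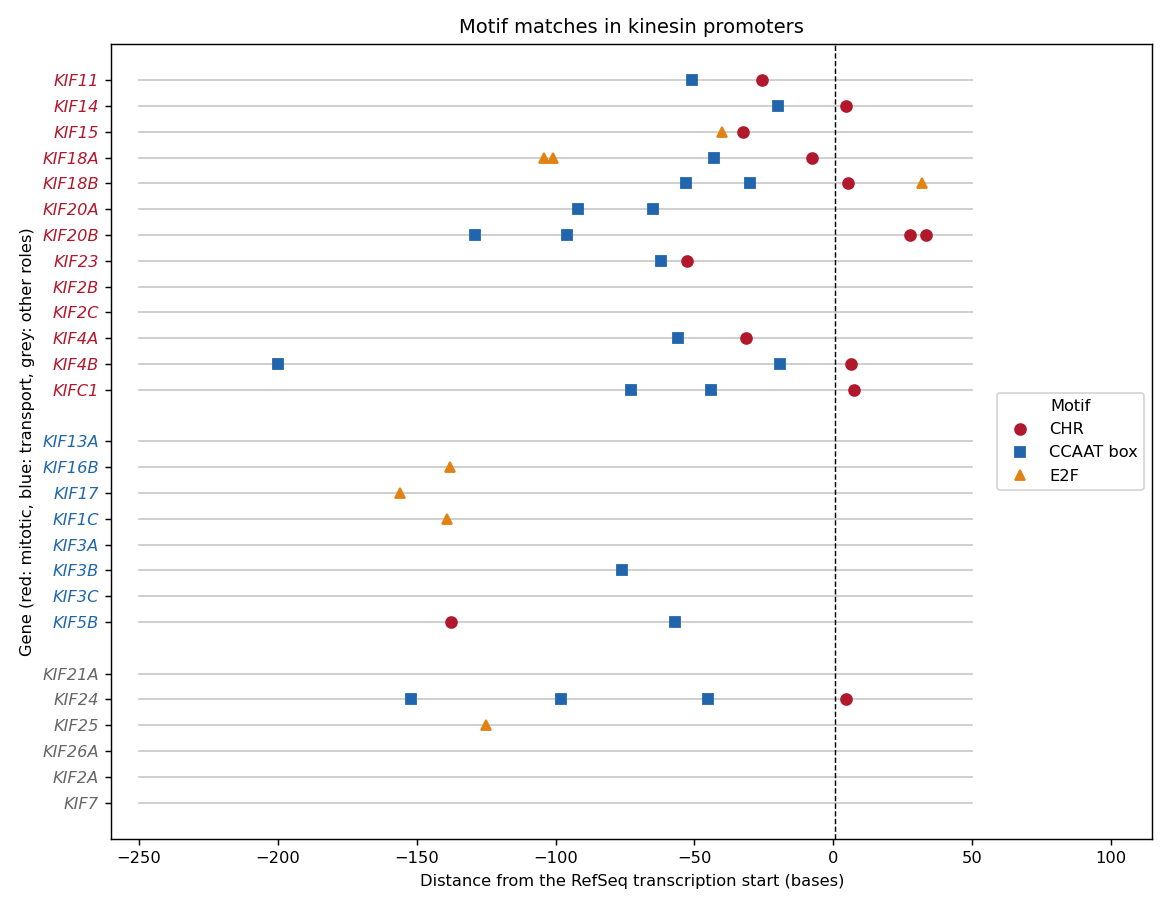
Motif matches in the promoters of 27 kinesins, 1 line per gene, with the distance from the transcription start in bases on the x axis (dashed line: start) and 1 symbol per match. CHR matches (circles) lie within 50 bases of the start in 9 mitotic kinesins and in KIF24, and the single CHR match of a transport kinesin, in KIF5B, begins at -140.

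Among the spindle assembly kinesins, KIF11, the tetrameric motor that pushes the spindle poles apart, had normalized counts of 198 and 199 in Ctr-KD cells and of 95.7, 51.3 and 131 with NSD2-1, NSD2-2 and NSD2-3. The groups did not overlap, and NSD2-2 was the lowest library. A log2 difference of -1.19 resulted (limma: standard error 0.33, adjusted p = 0.309), and the gene lies on chromosome 10 of GRCh37 from 94333862 to 94415152. KIF15, which can take over part of the work of KIF11 in keeping the spindle bipolar, had 43.8 and 41.2 in Ctr-KD cells and 28.5, 15.3 and 27.3 in NSD2-KD cells. It was thus the least abundant tested mitotic kinesin but lay below both Ctr-KD libraries with each siRNA. KIFC1, a minus-end motor that bundles spindle microtubules at the poles, was listed at 0 in all 5 libraries. That value is not a measure of its expression, because its neighbours on chromosome 6 were also near 0. Of 19 other protein-coding genes in the table within 200 kb of KIFC1, 16 had at most 3 reads in every library, among them RPS18, a ribosomal protein gene that every cell uses, with at most 2.06 normalized counts. Over all listed genes the share at or under 3 reads was 48.7%.

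Among the kinesins of chromosomes and kinetochores, KIF18B, which limits the length of astral microtubules, had the smallest p of all members. Its normalized counts were 90.5 and 98.8 in Ctr-KD cells (94.6 ± 5.84, SD, n = 2) and 54.3, 45.9 and 45.9 in NSD2-KD cells (48.7 ± 4.86, SD, n = 3). The 3 siRNAs gave nearly the same value, with a log2 difference of -0.95 (standard error 0.17, adjusted p = 0.164 from limma). KIF18A, which dampens chromosome movements at the metaphase plate, was just as even, with 52.4 and 52.5 in Ctr-KD cells and 27.6, 25.1 and 28.3 in NSD2-KD cells (log2 difference -0.93, standard error 0.20, adjusted p = 0.213 from limma).

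The other members of that group varied more between siRNAs. KIF2C, a microtubule depolymerase that corrects faulty kinetochore attachments, had 113 and 159 in Ctr-KD cells and 67.2, 42.6 and 90.8 in NSD2-KD cells, so the lowest Ctr-KD and the highest NSD2-KD values were not far apart. KIF4A, a chromokinesin that also shortens the central spindle, had 130.5 and 115.2 against 85.6, 36.0 and 75.2. KIF22, a chromokinesin that pushes chromosome arms away from the poles, had 133 and 120 against 81.0, 53.5 and 81.0. In all of these NSD2-2 was the lowest and both groups were separate. KIF4B, a near-identical intronless copy of KIF4A, had at most 6.17 normalized counts in any library, and how reads shared by the copies were assigned is uncertain. KIF2B was listed at 0 in every library, with an exact Poisson upper limit of 3.39 to 4.03 normalized counts per library (95%, counting error only).

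Among the kinesins of the central spindle and cytokinesis, KIF14, which works with citron kinase at the midbody, had the most negative log2 difference of the family in the fit, although by group means KIF24 was lower (36.0% of Ctr-KD, against 41.5% for KIF14). Its normalized counts were 103 and 103 in Ctr-KD cells and 50.6, 13.1 and 64.4 with NSD2-1, NSD2-2 and NSD2-3. The NSD2-2 value rested on 12 reads, with an exact Poisson interval of 6.77 to 22.9 normalized counts (95%, counting error only), and lay far below the other NSD2-KD libraries. The log2 difference was -1.52 with a standard error of 0.56 (adjusted p = 0.448 from limma), and -0.84 without the NSD2-2 library.

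KIF20A, which carries the chromosomal passenger complex to the central spindle, had the highest level per transcript length of the mitotic kinesins in Ctr-KD cells, at 75.3 ± 7.26 normalized counts per kilobase (SD, n = 2). Its normalized counts were 217 and 249 in Ctr-KD cells and 105, 102 and 185 in NSD2-KD cells. KIF23, the motor subunit of centralspindlin, had 222 and 233 against 131, 92.8 and 183. In both genes the NSD2-3 library was nearest to the Ctr-KD libraries. KIF20B, needed for the last step of cytokinesis, had 151 and 143 against 59.8, 47.0 and 111, and its log2 difference of -1.10 had a standard error of 0.32 (adjusted p = 0.323 in limma). Without the NSD2-3 library, KIF20A (log2 difference -1.16, adjusted p = 0.0367 from limma) and KIF20B (-1.46, adjusted p = 0.0376 from limma) passed the threshold, and 0.194% of all tested genes were then called lower. Exons of BRD8 and CDC23 overlap KIF20A and those of PDZD11 overlap KIF4A on the other strand, so these counts are uncertain where the counting did not use strand. Other tested members with such an overlap include KIF23 (KIF23-AS1), KIF1C (KIF1C-AS1), KIFC2 (FOXH1), KIF2A (DIMT1) and KIF7 (TICRR).

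**Figure D3:**
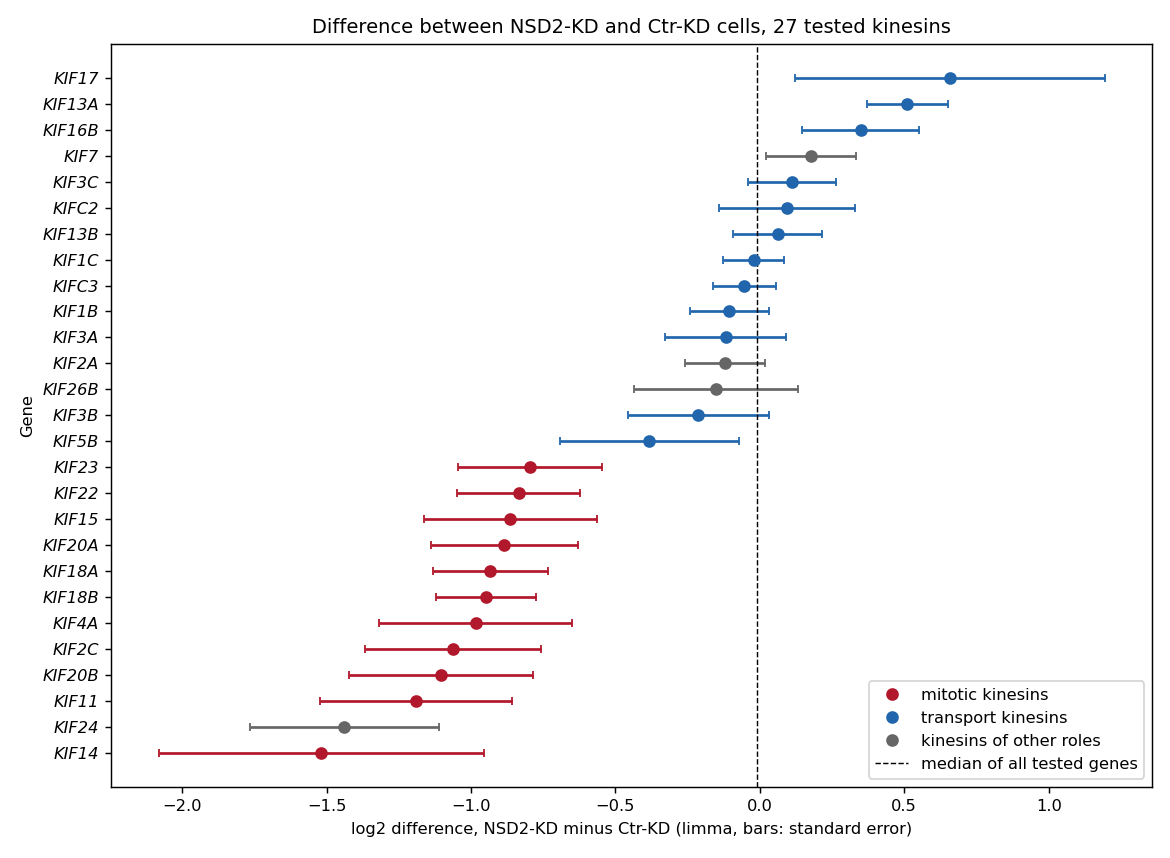
Log2 difference of each of the 27 tested kinesins, NSD2-KD minus Ctr-KD, with the standard error from limma as bars, the median of all tested genes as a dashed line and the role as colour. The 11 mitotic kinesins lie between -1.52 and -0.80 together with KIF24 of the other roles at -1.44, and the 12 transport kinesins lie between -0.38 and 0.66.

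The mitotic kinesins differed in level between the NSD2 siRNAs. NSD2-2 was the lowest of the NSD2-KD libraries in 11 of 11 tested mitotic kinesins (3936 of all 11313 tested genes), with a median of 36.0% of the Ctr-KD mean (range 12.7% to 48.5%). In KIF18B it was practically level with NSD2-3, at 45.878 against 45.879 normalized counts. With NSD2-1 the median was 52.6% (40.6% to 69.6%). With NSD2-3 it was 64.3% (48.5% to 80.3%), and this library was the highest of the NSD2-KD libraries in 8 of the 11 (3707 of all 11313 tested genes). The medians over all tested genes were 100.02%, 100.5% and 100.01%. The NSD2-2 library was also the shallowest, with 2473691 reads, and the part of depth in these values was not tested. With 1 library for each siRNA these differences have no replicate check.

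**Figure D4:**
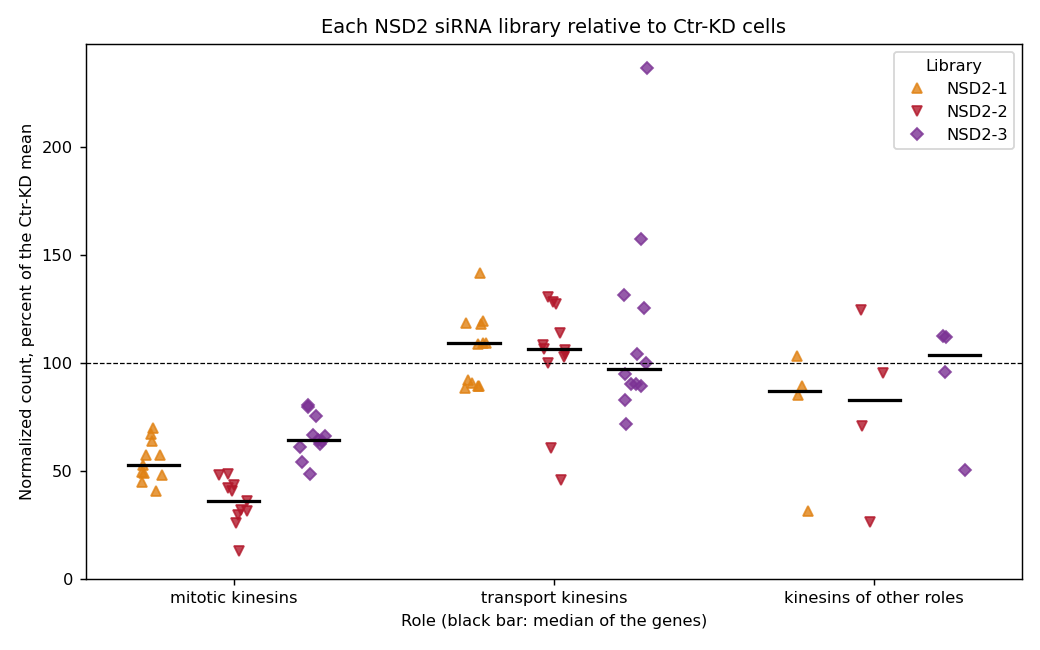
Normalized count of each tested kinesin in each NSD2-KD library as a percent of the Ctr-KD mean, grouped by role, with 1 symbol per gene, a black bar for the median and a dashed line at the Ctr-KD mean. The mitotic kinesins have medians of 52.6%, 36.0% and 64.3% with NSD2-1, NSD2-2 and NSD2-3, and the transport kinesins 109.1%, 106.2% and 97.3%.

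Together the mitotic kinesins had summed normalized counts of 1457 and 1520 in Ctr-KD cells and 790, 530 and 1024 in NSD2-KD cells, while the transport kinesins had 3481 and 3432 against 3566, 3005 and 3427. The 8 proliferation markers moved with the mitotic kinesins. Their summed normalized counts were 2571 and 2633 in Ctr-KD cells and 1405, 830 and 1045 in NSD2-KD cells, and all 8 had a negative log2 difference. Of the 8, 7 lay below both Ctr-KD libraries in every NSD2-KD library (13.9% of all tested genes), and 0 passed an adjusted p of 0.05 in limma (0.053% of all tested genes, lower). The siRNAs did not rank alike in all of them. MKI67, a marker of cycling cells, had 912 and 967 in Ctr-KD cells and 481, 217 and 110 in NSD2-KD cells, with its lowest value in the NSD2-3 library, where most mitotic kinesins were nearest to Ctr-KD. TOP2A, which untangles DNA before cell division, was also lowest there, at 629 and 662 against 419, 274 and 221. AURKA, BUB1 and CCNB1, a mitotic kinase, a checkpoint kinase and a mitotic cyclin, were lowest in the NSD2-2 library, as the mitotic kinesins were. The part of the proliferation markers in the kinesin result was not tested.

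By summed normalized counts in Ctr-KD cells, transport kinesins were above mitotic kinesins (3481 and 3432 against 1457 and 1520). The largest parts of the transport sum were KIF5B (1003 and 948) and KIF1C (941 and 903). Gene by gene, the tested members of both classes overlapped in normalized counts per kilobase. Ctr-KD means ran from 2.82 (KIF17) to 166 (KIF5B) in transport and from 8.93 (KIF15) to 75.3 (KIF20A) in mitotic kinesins. Per kilobase of transcript, the highest levels of the family in Ctr-KD cells were those of KIF5B (166 ± 6.71 normalized counts per kilobase), KIF1C (116 ± 3.39) and KIFC3 (92.4 ± 2.06, SD, n = 2 each), and these 3 differed from each other by more than their spread. KIF20A came next, followed by KIF23 (62.1 ± 2.04) and KIF22 (61.0 ± 4.42), which did not differ beyond their spread. KIF1A, KIF5A and KIF5C, known from neurons, had at most 3.09 normalized counts in any library and were not tested.

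KIF5B, the heavy chain of the conventional kinesin that carries mitochondria, lysosomes and vesicles, had 1003 and 948 normalized counts in Ctr-KD cells and 1066, 446 and 880 with NSD2-1, NSD2-2 and NSD2-3. The NSD2-2 value, from 408 reads, had an exact Poisson interval of 403 to 491 and lay apart from the other 4 libraries. The log2 difference of -0.38 (standard error 0.31, adjusted p = 0.772 from limma) became -0.0096 without that library. KIF3B, which pairs with KIF3A in the heterotrimeric kinesin of cilia and vesicle transport, showed a like pattern, with 251 and 266 in Ctr-KD cells and 305, 156 and 231 in NSD2-KD cells. Its direction also rested on NSD2-2, since the log2 difference went from -0.21 to 0.04 without it.

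KIF1C, which moves vesicles and integrin cargo to the cell periphery, had 941 and 903 against 814, 959 and 962, and KIF1B, a carrier of mitochondria and vesicles, had 326 and 354 against 303, 368 and 282. In both, the groups overlapped. KIFC3, a minus-end motor found at the Golgi and at cell junctions, had 315 and 306 against 285, 319 and 294. The log2 differences of these 3 genes lay between -0.11 and -0.02, with standard errors of 0.11 to 0.14. KIF3A (76.2 and 79.2 against 84.7, 77.6 and 55.6) and KIF3C (112 and 94.6 against 113, 118 and 103), the other motor subunits of that heterotrimeric kinesin family, overlapped as well. KIF13B had 143 and 154 against 176, 158 and 134, and KIFC2 had 47.6 and 35.0 against 36.8, 43.7 and 51.7, and neither showed a separation of groups.

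KIF13A, which carries cargo from the trans-Golgi network and recycling endosomes, was the transport kinesin with the smallest p. It had 203 and 250 normalized counts in Ctr-KD cells (226 ± 33.3, SD, n = 2) and 320, 291 and 356 in NSD2-KD cells (322 ± 32.9, SD, n = 3), so the groups were separate. A log2 difference of 0.51 resulted (limma: standard error 0.14, adjusted p = 0.303). KIF16B, a motor of early endosomes, was also above both Ctr-KD libraries in each NSD2-KD library, with 44.8 and 34.0 against 46.9, 51.3 and 51.7, but the gap between the groups was small (log2 difference 0.35, adjusted p = 0.670 from limma). KIF17 had 17.1 and 5.14 against 10.1, 14.2 and 26.4, a spread within groups as wide as the difference between them.

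Of the kinesins of other roles, KIF24, a depolymerase at the mother centriole that holds back the formation of primary cilia, behaved like the mitotic kinesins. Its normalized counts were 29.5 and 28.8 in Ctr-KD cells and 9.20, 7.65 and 14.6 in NSD2-KD cells. The groups did not overlap, with a log2 difference of -1.44 (standard error 0.33, adjusted p = 0.237 from limma). The nearest values rested on 28 reads in Ctr-2 and 15 reads in NSD2-3. Their exact Poisson intervals, 19.1 to 41.6 and 8.20 to 24.2 normalized counts (95%, counting error only), overlapped. The intervals of the nearest values also overlapped in KIF15, KIF2C, KIF4A, KIF18A, KIF22, KIF20A, KIF20B and KIF23. They did not in KIF11, KIF18B and KIF14. Of the 6 promoters of this class, only that of KIF24 held a CHR match, printed above, and exons of UBAP1 overlap the gene on the other strand.

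The depolymerase KIF2A had 126 and 121 against 105, 118 and 118, below both Ctr-KD libraries in each NSD2-KD library but by a small margin (log2 difference -0.12, adjusted p = 0.846 from limma). KIF2A stayed at 92.0% of the Ctr-KD mean, outside the 41.5% to 59.6% of the tested mitotic kinesins. Had it been counted as mitotic, that range would have been wider. Exons of DIMT1 overlap KIF2A on the other strand, so its counts share the uncertainty named for KIF20A. KIF7, a regulator of Hedgehog signalling at the tip of the cilium, had 124 and 103 against 117, 141 and 127, and KIF26B had 23.8 and 19.5 against 19.3, 15.3 and 24.4. In these the groups overlapped. KIF9, KIF21A, KIF21B and KIF27 had reads but a mean below 10, with at most 13.1 normalized counts in any library, and KIF6, KIF12, KIF19, KIF25 and KIF26A were listed at 0 throughout.

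Proteins that work with the kinesins were counted from lists written for this purpose. Of 10 partners of mitotic kinesins, 10 had a negative log2 difference (median -0.80), 9 lay below both Ctr-KD libraries in every NSD2-KD library (13.9% of all tested genes), 8 had an unadjusted p under 0.05 in limma (4.99% of all tested genes, lower) and 0 an adjusted p under 0.05 (0.053%). CENPE, a kinetochore kinesin that the naming rule leaves out, had 185 and 195 normalized counts in Ctr-KD cells and 130, 74.3 and 120 in NSD2-KD cells. Its log2 difference of -0.85 lay within the range of the mitotic members. HMMR (-1.04), TPX2 (-0.97), which activates Aurora A at the spindle and binds KIF11 and KIF15, CIT (-0.89), the citron kinase that works with KIF14, and NUSAP1 (-0.80) had the other largest log2 differences. RACGAP1, which forms centralspindlin with KIF23 and was picked for description after its values were seen, had 175 and 159 against 123, 78.6 and 162, so its groups overlapped through NSD2-3.

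Of 18 partners of transport kinesins, 17 were found in the table and 16 were tested. Their median log2 difference was 0.07, with 11 higher, 5 lower, 6 above both Ctr-KD libraries in every NSD2-KD library (13.8% of all tested genes), and 2 with an unadjusted p under 0.05 in limma, both higher (4.19% of all tested genes). KIFAP3, the non-motor subunit that joins KIF3A and KIF3B to their cargo, had 25.7 and 36.0 in Ctr-KD cells and 60.7, 72.1 and 68.3 in NSD2-KD cells. Each NSD2-KD library thus held more of this transcript than either Ctr-KD library, while KIF3A and KIF3B overlapped between the groups (log2 difference of KIFAP3 1.11, standard error 0.21, adjusted p = 0.194 from limma). KLC2, a light chain that links the KIF5 motors to cargo, had 197 and 175 against 224, 245 and 228 (log2 difference 0.32), and the light chain KLC1 had 518 and 452 against 517, 560 and 556 (0.17).

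Dynein, the motor that moves cargo in the opposite direction to most kinesins, and its activator dynactin served as a microtubule motor outside the family. Of 25 genes, 23 were tested, with a median log2 difference of 0.07, 16 higher and 7 lower. In every NSD2-KD library, 6 lay above both Ctr-KD libraries and 2 below (13.8% and 13.9% of all tested genes). At an unadjusted p under 0.05 in limma, 1 was lower and 1 higher, shares near those of all tested genes (4.99% and 4.19%). DYNC1H1, the dynein heavy chain, had 2968 and 2900 in Ctr-KD cells and 3246, 3896 and 3499 in NSD2-KD cells (log2 difference 0.27, adjusted p = 0.424 from limma). DYNLL2, a light chain, had 220 and 178 against 122, 147 and 175 (-0.43, adjusted p = 0.516 from limma). The groups were separate in both genes, by a narrow margin in DYNLL2.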

How the data were processed

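Poly(A) RNA of 5 IMR-90 samples was sequenced by the authors. Per the labels and the study's methods, reads were aligned to hg19 with HISAT2 and counted with featureCounts, and the strand setting is not given in the sources used here. The deposited table holds, for each library, DESeq2-normalized counts (a signal value made by the authors as reads divided by a size factor). Whole reads were recovered from the step of each column for all values, within 0.001 reads. A separate deposited table of the authors' own comparison (base means, fold changes, standard errors, test statistics and p-values) was not used. In the gene names, 28 had been turned into dates by a spreadsheet and could not be matched.

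Members, gene lists and tests were chosen with earlier results of these data known. Log2(normalized count + 1) of the 11313 genes with a mean of at least 10 was fitted with limma 3.58.1 (R 4.3.3, mean-variance trend, two-sided, Benjamini-Hochberg, threshold 0.05), and the code was tested on simulated data. Alternatives were other pseudocounts and filters, limma without trend, robust limma, quantile normalization, limma-voom, edgeR 4.0.16 and DESeq2 1.42.0 on recovered reads, a replicate block, and leaving out each library. The study's methods call the Ctr-KD libraries biological replicates and give each NSD2 siRNA a single one. Intervals are exact Poisson and cover counting error only. Genomic positions are GRCh37, the build of hg19, except promoters. All members with a mean of at least 10 were given by library. Genes of the partner and marker lists were named where groups did not overlap and the unadjusted p was under 0.05, up to 5 per list by log2 difference, and CENPE, KLC1, KIFAP3 and DYNC1H1 in any case. Protein sequences were not analysed here.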

Additional observations from a re-analysis of the deposited data

How the results depend on the processing

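All 11 tested mitotic kinesins stayed lower in every alternative that kept them (9 of 9 at a minimum mean of 50), and their median log2 difference ran from -1.13 to -0.78, the latter without the NSD2-2 library. The transport median ran from -0.06 to 0.04. The number of genes called lower, 6 as reported, was 1 without the trend, 11 with edgeR and 41 with DESeq2, and 0 to 22 when single libraries were left out. The number called higher, 4 as reported, was 0 without the trend, 8 with quantile normalization and 14 with DESeq2, and 0 to 8 when single libraries were left out. Mitotic kinesins called lower, 0 as reported, were 0 to 2 when single libraries were left out, the 2 being KIF20A and KIF20B without NSD2-3. Leaving out a Ctr-KD library leaves a lone control that is assumed to vary like the NSD2-KD libraries.

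With the replicate block, 84 genes were called lower and 18 higher, among them 5 mitotic kinesins (KIF11, KIF14, KIF20A, KIF20B and KIF23). The labels share only the numbers 1 and 2 between groups, so NSD2-3 has no partner and does not inform the block's difference, and same-numbered libraries did not deviate together (correlations of -0.02 and -0.03), so the numbers were not taken as pairs. The block turned the log2 differences of KIF3A to 0.0598 and of KIFC2 to -0.0252. When single libraries were left out, the sign also changed in 8 genes, over ranges of -0.239 to 0.0598 for KIF3A, -0.123 to 0.312 for KIFC2, -0.0288 to 0.167 for KIF13B, -0.123 to 1.44 for KIF17, -0.0611 to 0.0585 for KIF1C, -0.311 to 0.00898 for KIF26B, -0.441 to 0.0410 for KIF3B and -0.0132 to 0.233 for KIF3C. The cause was not tested. With 2473691 to 2845063 reads per library, counting error alone allows a gene listed at 0 up to 3.39 to 4.03 normalized counts, depending on the library (exact Poisson limit, 95%). The limit does not cover genes whose reads were lost in the counting, so it is not given for KIFC1.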

Other observations

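KIF5B and KIF3B were by far the lowest in the NSD2-2 library, at 45.7% and 60.4% of the Ctr-KD mean. In the NSD2-3 library they were at 90.2% and 89.5%, and in the NSD2-1 library at 109.3% and 118.2%. In the list of dynein and dynactin genes, BICD2, an adaptor that links dynein to cargo, was chosen here after its values were seen. It had 243 and 256 normalized counts in Ctr-KD cells and 204, 134 and 293 in NSD2-KD cells, with the lowest value in NSD2-2. Of the partners of transport kinesins named in the report, KLC1, KLC2 and KIFAP3 had their highest value in that library. With 1 library for this siRNA, an effect of the siRNA and variation of the culture cannot be told apart.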
